A study of Saccharomyces cerevisiae with 6 samples.

Results

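Transcript levels of 10 genes of fatty acid synthesis and desaturation were followed in wine strains of the yeast Saccharomyces cerevisiae fermenting MS300, a synthetic must that stands in for white grape juice. The genes were ACC1, FAS1, FAS2, OLE1, ELO1, ELO2, ELO3, FAA1, FAA4 and MGA2, taken by name from a table of 6611 rows. The table lists ELO2 and ELO3 under their older names FEN1 and SUR4, and these were matched through RefSeq. Cells were collected when 6 g/l of CO2 had been produced, in the middle of exponential growth. VL3 and AWRI796, both enological strains, were each measured without SO2 and with 25 mg/l of SO2. For EC1118, another enological strain, and R008, a wild type vineyard strain, only cultures with 25 mg/l of SO2 were used here. Each of the 6 groups is 1 library, so no value has a replicate error, and whether neighbouring levels differ beyond the spread of a culture cannot be told. The labels name no deletion, transgene or other agent in any strain.

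In yeast, acetyl-CoA carboxylase (Acc1) makes malonyl-CoA, and the fatty acid synthase, built from Fas1 and Fas2, uses it to make saturated chains in the cytosol. Ole1, an oxygen-dependent desaturase of the endoplasmic reticulum, puts the double bond into these chains, and the elongases Elo1, Elo2 and Elo3 lengthen them toward the very long chains of sphingolipids. Faa1 and Faa4 activate free fatty acids to acyl-CoA, and Mga2, held in the membrane until it is processed, activates OLE1. Oxygen runs short in a fermenting must, and the supply of unsaturated chains is one of the limits on yeast growth there.

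Levels are RPKM, reads scaled to gene length and to the mapped reads of a library, divided by 1 scaling factor per library between 0.88 and 1.153, and are called scaled RPKM. Changes are differences of log2(scaled RPKM + 1), written as log2 changes or folds, with SO2 against without unless another pair is named. A change within a strain is counted from 1.5-fold upward. RPKM hold no counts, so the depth is unknown. The libraries differed in growth-related genes: the summed level of 10 stationary phase markers was 19057 scaled RPKM in the AWRI796 culture without SO2, against 1788 to 8082 elsewhere, and that of 124 cytosolic ribosomal protein genes was 158975 in the AWRI796 culture with SO2, against 48217 to 81071 elsewhere. HSP12 and HSP26 make up 18421 of the 19057; the other 8 markers summed to 636 in that library and to between 256 and 623 elsewhere, and the median log2 level of the 10 was 6.66 there and 4.87 to 6.25 elsewhere. No stationary phase marker was listed at 0. Their part in the results below was not tested.

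The DNA before the start codons was searched for letters of known control elements. In the 500 bases before the start codon, on both strands, 2 motifs were looked for in R64, the reference genome of a laboratory strain, whose start and end equal those of the table for all 10 genes. CATGTG is the core of the element bound by Ino2 and Ino4, the activators of phospholipid and fatty acid synthesis genes. ACTCAACAA is the low oxygen response element, through which Mga2 acts on OLE1. CATGTG was found before 5 of the 10 genes and before 13.2% of 6006 genes searched. ACTCAACAA was found before OLE1 alone among the 10 and before 0.383% of all genes searched. The stretches below are 5′ to 3′ on the strand of the gene, from RefSeq R64, with the motif or its reverse complement in capitals; none lies in another reading frame, and the wine strains' own sequences were not used. They are shown so that the levels of MGA2, INO2 and INO4 given below can be read beside the genes that hold the matching letters.
OLE1, chr7:398265-398313, plus strand, motif from base 343 before the start codon: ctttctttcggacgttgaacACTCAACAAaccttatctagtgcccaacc
ACC1, chr14:661691-661736, minus strand, motif from base 342: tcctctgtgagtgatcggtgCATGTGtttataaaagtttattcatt
FAS2, chr16:108400-108445, plus strand, motif from base 232: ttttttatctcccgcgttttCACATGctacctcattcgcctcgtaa
ELO2, chr3:190405-190450, plus strand, motif from base 167: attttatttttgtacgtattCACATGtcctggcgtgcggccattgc
FAA1, chr15:908924-908969, plus strand, motif from base 399: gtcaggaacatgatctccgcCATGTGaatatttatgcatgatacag
MGA2, chr9:415681-415726, plus strand, motif from base 423: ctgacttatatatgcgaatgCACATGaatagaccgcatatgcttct
A match says only that the letters are present. FAS1, ELO1, ELO3 and FAA4 had neither motif in this window.

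The 10 genes spanned a wide range of levels. OLE1 ranked between 4th and 9th of all genes in every library, with a median of 11273 scaled RPKM. FAS1 had a median of 1177 and FAS2 of 1207, at ranks between 68 and 125 and between 31 and 189. FAA4 (median 448), ELO1 (387), ELO3 (324), ACC1 (275) and MGA2 (234) lay in a middle band. FAA1 had a median of 107, and ELO2 was the lowest of the 10 at 18.1, at ranks between 3235 and 4272. The median range between the highest and lowest library was 0.98 on the log2 scale for these genes and 0.93 for all 5009 genes with 6 values. FAA4 had the narrowest range of the 10, 0.39, and only 3.9% of all genes had a narrower one. FAS2 and FAA1 had the widest, 1.6 and 1.59.

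**Figure D1:**
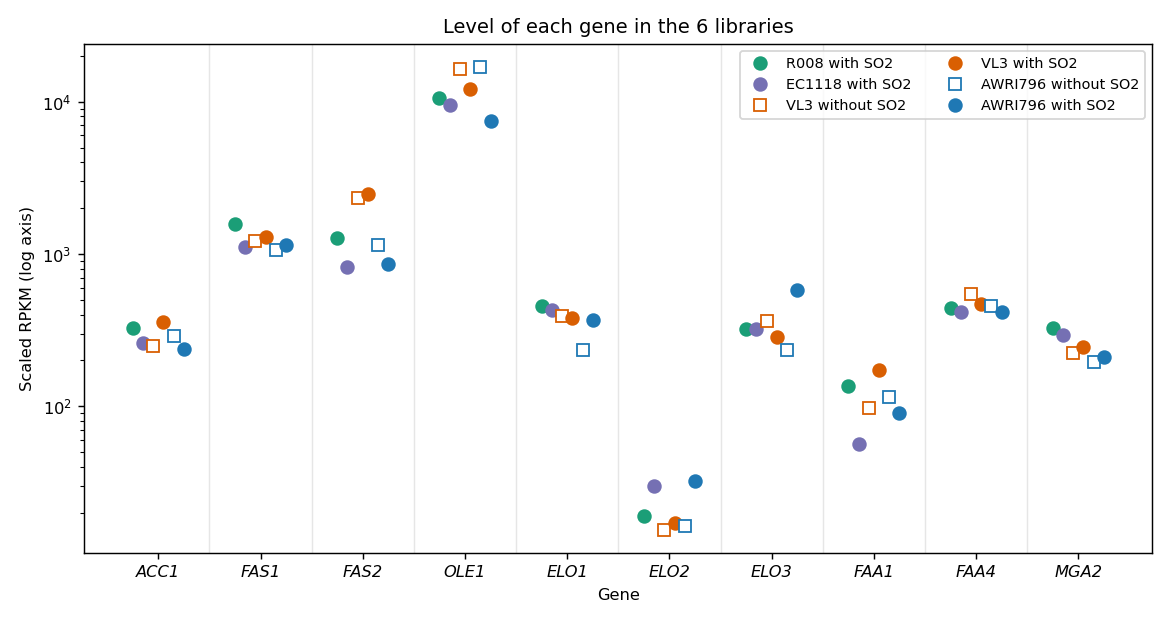
Scaled RPKM (log axis) of each of the 10 genes, 1 point per library; colours mark strains, open squares cultures without SO2 and filled circles cultures with 25 mg/l of SO2. OLE1 sits far above the rest at 7479 to 16857 and ELO2 far below at 15.5 to 32.4, and the 2 VL3 points of FAS2 stand above the other 4.

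ACC1 and the 2 synthase genes open the pathway, and with SO2 none of them moved 1.5-fold in either strain with the scaling factors in use. ACC1 (YNR016C, chromosome 14, 654673 to 661374, R64, 1 coding exon as for all 10 genes) stood at 249 in VL3 without SO2 and 358 with it, and at 289 and 238 in AWRI796; EC1118 had 261 and R008 326. VL3 with SO2 was the highest library and AWRI796 with SO2 the lowest. The log2 change was 0.52 in VL3, which became 0.69 and passed 1.5-fold without the scaling factors, and -0.28 in AWRI796.

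FAS1 (YKL182W, chromosome 11, 100671 to 106826), the beta subunit, had 1211 and 1290.1 in VL3 without and with SO2, 1059.6 and 1143 in AWRI796, 1115 in EC1118 and 1579 in R008. Its level was nearly flat apart from R008, with log2 changes of 0.09 in VL3 and 0.11 in AWRI796, the latter -0.24 with quantile normalization. FAS2 (YPL231W, chromosome 16, 108652 to 114315), the alpha subunit that carries the acyl chain, had 2324 and 2489.8 in VL3, 1141 and 862 in AWRI796, 822 in EC1118 and 1273 in R008. Both VL3 libraries lay above the other 4, an order whose share over all genes was not taken. Both AWRI796 libraries lay below both VL3 libraries, as for 21.7% of 5092 genes. Its log2 change was 0.1 in VL3 and -0.4 in AWRI796, the latter -0.82 and past 1.5-fold with quantile normalization.

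The 2 subunits are built into the synthase in equal number, so their ratio within a library was taken, which no scaling factor touches. FAS2 over FAS1 was 1.92 and 1.93 in VL3 without and with SO2. It was 1.08 and 0.754 in AWRI796, 0.737 in EC1118 and 0.806 in R008. VL3 therefore held more FAS2 than FAS1 per length at both SO2 levels, whereas 3 of the other 4 libraries held less. RPKM rest on the gene lengths and mapping used for each strain, which no source used here gives, so a strain's gene model and its expression cannot be told apart in this ratio.

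**Figure D2:**
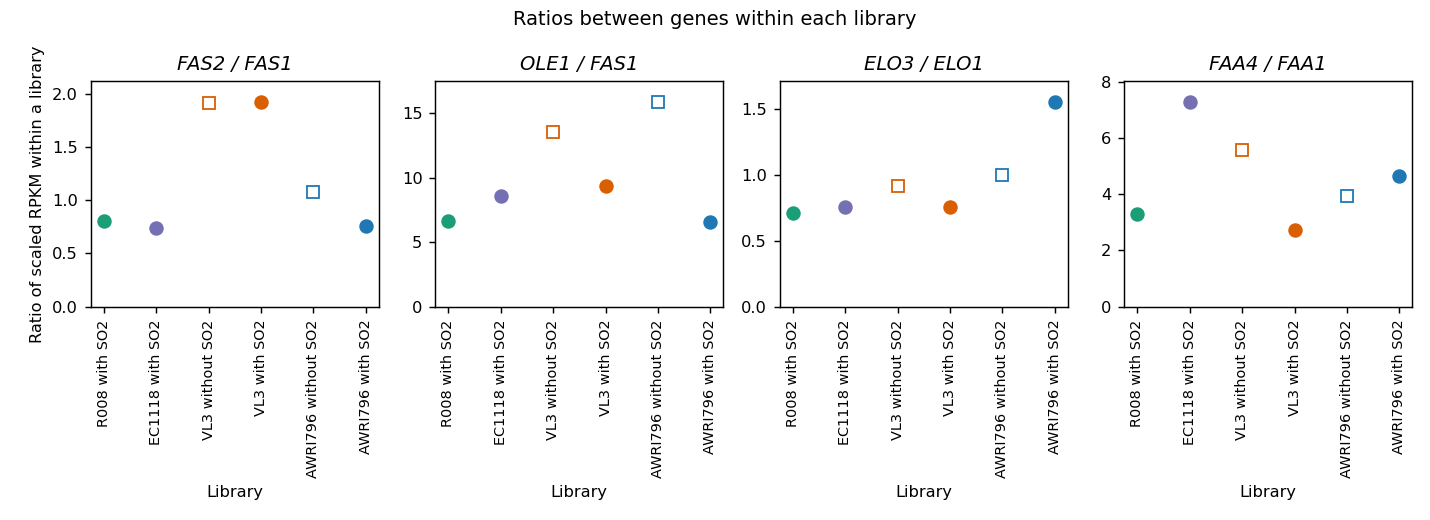
Ratio of scaled RPKM of gene pairs within each of the 6 libraries, each panel on its own linear axis from 0; open squares are cultures without SO2. FAS2 over FAS1 is near 1.9 only in the 2 VL3 libraries, OLE1 over FAS1 is 15.9 in AWRI796 without SO2 and 6.54 with it, and ELO3 over ELO1 is highest in AWRI796 with SO2 at 1.56.

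OLE1 (YGL055W, chromosome 7, 398628 to 400160), the only delta-9 desaturase of this yeast, was lower with SO2 in both strains. It had 16388 without and 12030.2 with SO2 in VL3, and 16857 without and 7479 with SO2 in AWRI796; EC1118 had 9522 and R008 10516. The 2 cultures without SO2 were the 2 highest libraries, above all 4 cultures with SO2. EC1118 and R008 have no culture without SO2 here, so strain and SO2 are mixed in this order. The share of all genes with the same order was not taken. The log2 change was -0.45 in VL3, which became -0.81 and passed 1.5-fold with quantile normalization, and -1.17 in AWRI796, a 2.25-fold difference. Over both strains the mean log2 change was -0.81 ± 0.77 (SE, limma, adjusted p = 0.86), so the difference did not pass the test. Less OLE1 RNA per cell and fewer cells with it cannot be told apart in a whole culture. Relative to the synthase, OLE1 over FAS1 went from 13.5 to 9.33 in VL3 and from 15.9 to 6.54 in AWRI796. In the AWRI796 pair, 5 of 10 stationary phase markers had a level at least 1.5-fold lower with SO2 and 2 higher, where 15.4% of all genes were lower and 17.6% higher. Their summed level was 19057 without and 4218 with SO2, mostly HSP12 and HSP26, and the other 8 summed to 636 and 623. In VL3, 1 of 10 was lower and 3 higher, where 9.86% of all genes were lower and 10.7% higher, and the sums were 2514 and 3213.

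MGA2 (YIR033W, chromosome 9, 416124 to 419465), the activator of OLE1, varied little with SO2. It had 224 and 245 in VL3, 196 and 211 in AWRI796, 294 in EC1118 and 326 in R008, with log2 changes of 0.13 and 0.11, the latter -0.04 with quantile normalization. R008 and EC1118 were thus above all VL3 and AWRI796 libraries, an order whose share over all genes was not taken. SPT23, the paralog of MGA2 that acts on OLE1 as well, ranged from 11.4 to 20.6, and MGA2 exceeded it by 9.53 to 19.6 times per length. These are transcript levels; both proteins are known to be switched on by processing, which RNA does not show.

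The 3 elongase genes were all higher with SO2 in AWRI796 and showed no such shift in VL3. ELO3 (YLR372W, chromosome 12, 867354 to 868391), which makes the longest chains, had 235 without and 580.2 with SO2 in AWRI796, and 363 without and 287 with SO2 in VL3; EC1118 and R008 both had 324. AWRI796 without SO2 was the lowest library and AWRI796 with SO2 the highest, 2.46-fold apart. ELO2 (YCR034W, chromosome 3, 190592 to 191635), which serves sphingolipid synthesis as well, had 16.4 and 32.4 in AWRI796, 15.5 and 17.1 in VL3, 30.1 in EC1118 and 19.1 in R008. Its AWRI796 change was 1.92-fold, and EC1118 stood close to AWRI796 with SO2. ELO1 (YJL196C, chromosome 10, 67850 to 68782), which lengthens medium chains, had 234 and 371 in AWRI796, 394 and 380.1 in VL3, 429 in EC1118 and 453 in R008. For ELO1 the AWRI796 culture without SO2 was low and the other 5 libraries lay between 371 and 453, so its 1.58-fold change rested on that library; with quantile normalization it was below the threshold, at a log2 change of 0.52.

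Among the 3 elongases in R64 the closest coding match was 69.1% identical, over 41.3% of ELO2. Whether their reads were told apart was not tested, and the aligner is not given. ELO3 over ELO1 was between 0.715 and 1 in 5 libraries and 1.56 in AWRI796 with SO2. Their partners in the elongation cycle had log2 changes in AWRI796 of 0.47 for the ketoreductase IFA38, 0.39 for the dehydratase PHS1 and 0.93 for the enoyl reductase TSC13, against -0.05, -0.24 and 0.25 in VL3. TSC13 alone of the 3 reached 1.5-fold, from 155 to 296 scaled RPKM in AWRI796, where 17.6% of all genes were higher. Cytosolic ribosomal protein genes were also higher in the AWRI796 pair, where 122 of 129 passed 1.5-fold upward (median log2 change 1.67). In VL3, 33 of 131 did (median 0.34), where 10.7% of all genes were higher.

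FAA1 and FAA4, which activate imported fatty acids, differed in how steady they were. FAA1 (YOR317W, chromosome 15, 909343 to 911445), the main activity, had 98.1 and 173 in VL3, 115 and 90.1 in AWRI796, 56.9 in EC1118 and 135 in R008. VL3 with SO2 was the highest library and EC1118 the lowest, 3.04-fold apart; the change in VL3 was 1.76-fold higher and in AWRI796 1.28-fold lower. FAA4 (YMR246W, chromosome 13, 759807 to 761891) had 544 and 469 in VL3, 453 and 418 in AWRI796, 415 in EC1118 and 444 in R008. Its log2 changes were -0.21 and -0.12. FAA4 over FAA1 ran from 2.71 in VL3 with SO2 to 7.29 in EC1118. The closest coding match of FAA4 was FAA3, 76.9% identical, whose level lay between 60.8 and 80.1. Of 4 other genes of acyl-CoA handling, 0 reached 1.5-fold in VL3 and 1 was lower in AWRI796, where 15.4% of all genes were lower. This was FAA2, a peroxisomal synthetase, which went from 17.7 to 7.56 in AWRI796 (2.18-fold lower) and from 20.9 to 17 in VL3.

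Counted together, the 10 genes gave shares that lay near those of all genes in VL3 and, with 10 genes, not far from them in AWRI796. In VL3, 1 of 10 (FAA1) was at least 1.5-fold higher and 0 lower, where 10.7% of 5150 genes were higher and 9.86% lower. In AWRI796, 3 of 10 (ELO1, ELO2 and ELO3) were at least 1.5-fold higher and 1 (OLE1) lower, where 17.6% of 5158 genes were higher and 15.4% lower. The median log2 change of the 10 was 0.1 in VL3 and 0 in AWRI796, beside -0.01 and 0 over all genes. Without the scaling factors 2 of 10 were higher in VL3, where 930 of 5150 genes were. With quantile normalization 1 was lower in VL3, where 481 of 5150 genes were. In AWRI796 that setting left 2 higher, as ELO1 fell below the threshold, where 847 of 5158 genes were higher. It made 2 lower there, where 804 of 5158 genes were. Over both strains limma called 0 of the 10 and 0 of 5092 genes (0.0%) at an adjusted p of 0.05; at an unadjusted p under 0.05 it had 0 of the 10 and 7.36% of all genes. ELO2 had the lowest adjusted p of the 10, 0.79 by limma, at a mean log2 change of 0.54 ± 0.34 (SE). Its change was 0.94 in AWRI796 and only 0.13 in VL3, so this mean came mostly from the AWRI796 pair. The fit has 1 residual degree of freedom, so it rests mainly on a spread pooled over genes.

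**Figure D3:**
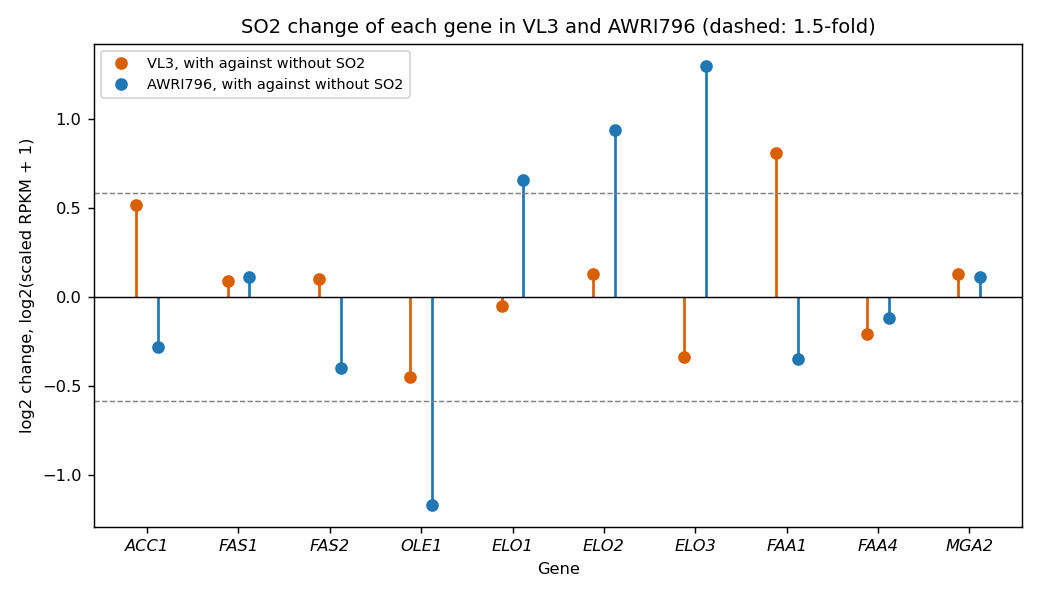
Log2 change with against without SO2 for each gene, 1 pair of libraries per strain, orange for VL3 and blue for AWRI796; dashed lines mark 1.5-fold. In AWRI796 the 3 elongases lie above the upper line and OLE1 at -1.17 below the lower one, while in VL3 only FAA1 passes a line.

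The 2 strains were also set against each other for each gene. For 5 of 10 genes (ACC1, FAS2, ELO1, ELO3 and FAA1) the sign of the change was opposite in VL3 and AWRI796, where 46.0% of 5092 genes were opposite. Without the scaling factors ELO1 was higher in both strains, which left 4, beside 47.4% of all genes. With quantile normalization FAS1 and MGA2 were opposite as well, which made 7, beside 46.3%. Their AWRI796 changes were then -0.24 and -0.04, so these 2 signs rest on small values. The change in AWRI796 differed from that in VL3 by at least 1.5-fold for 6 of 10 genes, beside 40.5% of all genes. These 6 were ACC1, OLE1, ELO1, ELO2, ELO3 and FAA1; FAS2 passed and ELO1 did not without the scaling factors, and FAS2 passed but OLE1 and ELO1 did not with quantile normalization. ELO3 and FAA1 had the widest gaps, 1.64 and -1.17 on the log2 scale, and 1.4 and -1.41 without the scaling factors. FAS1, FAA4 and MGA2 had gaps of 0.02, 0.1 and -0.02. No residual is left to test these gaps.

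**Figure D4:**
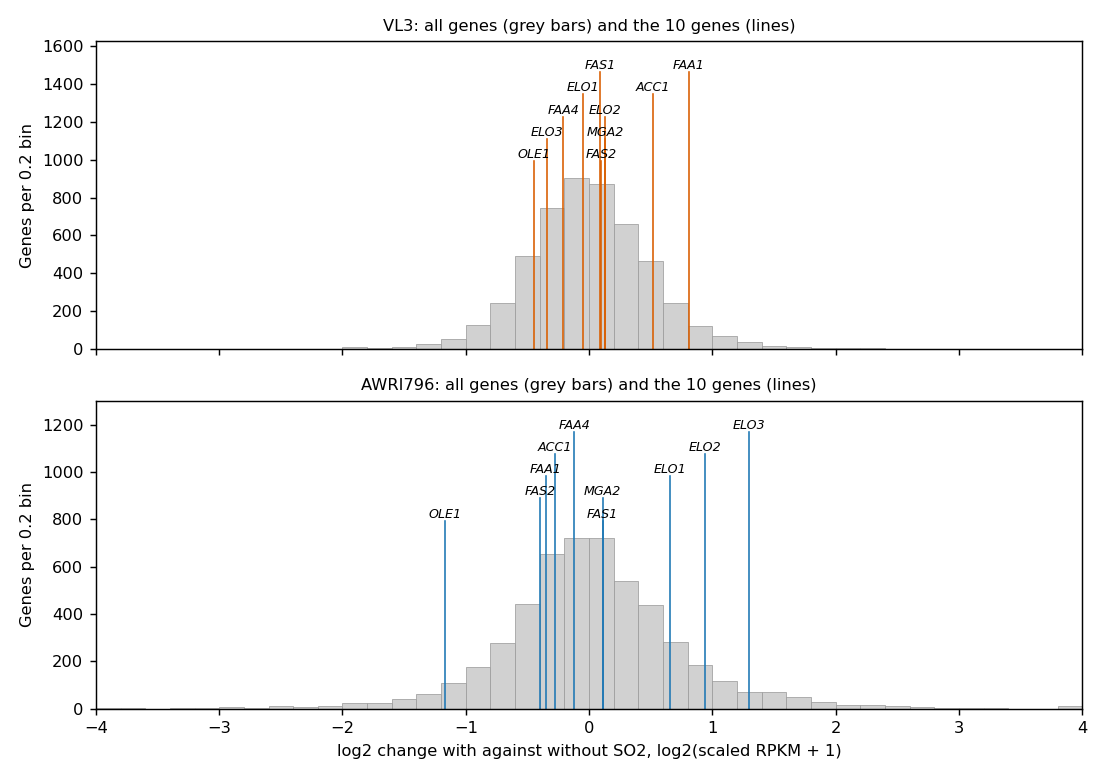
Distribution of log2 changes with SO2 over all genes kept, in bins of 0.2 between -4 and 4 (grey bars, genes beyond are counted in the outermost bins), with the 10 genes as lines, for VL3 above and AWRI796 below. Most of the 10 lie within the bulk of all genes; ELO3 at 1.3 and OLE1 at -1.17 in AWRI796 lie on its flanks.

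Between strains, FAS2 differed most. AWRI796 stood below VL3 by -1.28 ± 0.46 on the log2 scale (SE, limma, unadjusted p = 0.025, adjusted p = 0.33), which did not pass the test. FAS2 was the only 1 of the 10 with an unadjusted p under 0.05, beside 12.0% of all genes, and 0 of the 10 were called where 0.334% of 5092 genes were. Both AWRI796 libraries lay below both VL3 libraries for 5 of 10 genes (FAS1, FAS2, ELO1, FAA4 and MGA2), beside 21.7% of all genes, and above both for 0 of 10, beside 21.6%. This count rests on the scaling: without the factors it was 1 below (FAS2), beside 10.5% of all genes, and 1 above (ELO2), beside 36.0%. With quantile normalization it was 4 below, beside 22.7% of all genes, and 0 above, beside 20.8%. Of these 5, FAS2 had a log2 difference of -1.28 and the other 4 lay between -0.39 and -0.18. Without the scaling factors the median difference of the 10 was 0.04 in place of -0.21.

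With SO2, R008 was set against the 3 enological strains. R008 had the highest level of the 4 strains for 3 of 10 genes (FAS1, ELO1 and MGA2), beside 20.1% of all genes, and the lowest for 0 of 10, beside 21.2%. Without the scaling factors it was the highest for 1 (FAS1), beside 8.13% of all genes, and the lowest for 3 (ELO2, ELO3 and FAA4), beside 42.3%. By limma FAS1 was higher by a log2 difference of 0.42 ± 0.45 (SE, adjusted p = 1) and MGA2 0.39 ± 0.39 higher (adjusted p = 1). Of the 10, limma called 0, where 0.18% of 5009 genes were called, and 0 had an unadjusted p under 0.05, beside 3.15% of all genes. The single R008 library is assumed in this fit to vary like the others.

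Of 46 measured genes in 8 lists around the pathway, 4 were at least 1.5-fold higher and 4 lower in VL3, and 4 higher and 8 lower in AWRI796. Over all genes the shares were 10.7% and 9.86% in VL3 and 17.6% and 15.4% in AWRI796, and each list count below is to be read beside them. In the tests over both strains limma called 0 genes of any list below, so values within each strain are given, with 1 library on each side. Of 3 genes of electron transfer, 1 was higher and 1 lower in VL3, and 1 higher in AWRI796. Cytochrome b5, CYB5, an electron carrier for lipid desaturation, was 2.2-fold higher in VL3 (237 to 523) and 1.06-fold in AWRI796. Its reductase CBR1 was 2-fold lower in VL3 (1226 to 613) and 1.17-fold higher in AWRI796. NCP1, the reductase of the cytochrome P450 system, was 1.54-fold higher in AWRI796.

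Of 6 regulators of the OLE1 route, 1 was at least 1.5-fold higher in VL3 and 2 lower in AWRI796. NPL4 was 1.66-fold higher in VL3, and in AWRI796 UFD1 was 1.57-fold and UBX2 1.51-fold lower. UFD1 and NPL4 assist the ATPase Cdc48, which frees processed Mga2 and Spt23 from the membrane. Of 5 measured regulators of synthesis genes, INO2 alone passed 1.5-fold, lower in VL3 and higher in AWRI796. INO2, which activates through CATGTG elements, had 3.57 and 8.86 scaled RPKM in AWRI796 and 9.68 and 5.49 in VL3, close to the filter of 5. Its partner INO4 had 101 and 148 in AWRI796 and 132 and 117 in VL3, and the repressor OPI1 116 and 119, and 132 and 116. Of the 5 genes with CATGTG, ELO2 was at least 1.5-fold higher in AWRI796 and FAA1 in VL3, where 17.6% and 10.7% of all genes were higher. ACC1, FAS2 and MGA2 stayed below 1.5-fold in both strains with the scaling factors in use. Without the factors ACC1 passed in VL3 (log2 change 0.69), and with quantile normalization FAS2 passed in AWRI796 (-0.82). BPL1, the biotin ligase of Acc1, lay below the filter, between 2.41 and 5.45.

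Mitochondria hold a separate fatty acid synthesis route, and 8 of its genes were measured. In VL3, 1 was at least 1.5-fold lower (PPT2, 1.91-fold) and 0 higher, where 9.86% of all genes were lower and 10.7% higher. In AWRI796, 2 were lower, ETR1 by 1.81-fold and HFA1, the mitochondrial carboxylase, by 1.53-fold, and 0 higher. Of all genes, 15.4% were lower and 17.6% higher in that pair. HFA1 stood at 58.1 and 40.7 in VL3 and between 19 and 29.5 in the other libraries, so that ACC1 exceeded it 4.28 to 12.6 times per length. Of 6 genes of acetyl-CoA and NADPH supply, ZWF1, which opens the pentose phosphate pathway, was 1.78-fold higher in VL3, and in AWRI796 ALD6, the cytosolic acetaldehyde dehydrogenase, was 2.66-fold (831 to 311) and ACS1 1.56-fold lower. ACS2, the acetyl-CoA synthetase used on glucose, had log2 changes of 0.44 and -0.11.

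Genes that use the acyl chains gave 1 of 11 at least 1.5-fold higher and 1 lower in each strain. In VL3 these were the sterol acyltransferases ARE2, 1.81-fold higher, and ARE1, 1.55-fold lower. In AWRI796 LCB1, a subunit of the first enzyme of sphingolipid synthesis, was 1.68-fold higher, and DGA1, which makes triacylglycerol, was 1.57-fold lower. LCB2, the partner of LCB1, and the ceramide synthases LAG1 and LAC1 had log2 changes of 0.58, 0.58 and 0.37 in AWRI796, and of -0.34, -0.21 and -0.44 in VL3.

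OLE1 is itself a gene of low oxygen, so a list of 8 genes was read beside it. It holds hypoxic genes and ROX1, a repressor of such genes. In AWRI796, 4 of 8 passed 1.5-fold upward with SO2 and 0 downward, where 17.6% of all genes were higher and 15.4% lower. These were ANB1 (2.22-fold), DAN1 (1.86-fold), HEM13 (1.78-fold) and TIR1, at the threshold (1.5-fold). Of the rest, AAC3 was 1.45-fold higher, ROX1 was flat (log2 change 0.01), and COX5B and CYC7 were 1.32-fold and 1.23-fold lower. OLE1 was 2.25-fold lower in the same pair. In VL3, 2 of 7 were higher (10.7% of all genes), the repressor ROX1 4.81-fold and CYC7 3.06-fold, so CYC7 was the only hypoxic gene among them. HEM13 was 1.31-fold lower in VL3, and ANB1, DAN1, AAC3 and COX5B had log2 changes between 0.05 and 0.23. None of the 8 genes was listed at 0. The summed level of the 7 with 6 values, ROX1 among them, was 3056 and 4671 in AWRI796 and 3067 and 3357 in VL3.

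**Figure D5:**
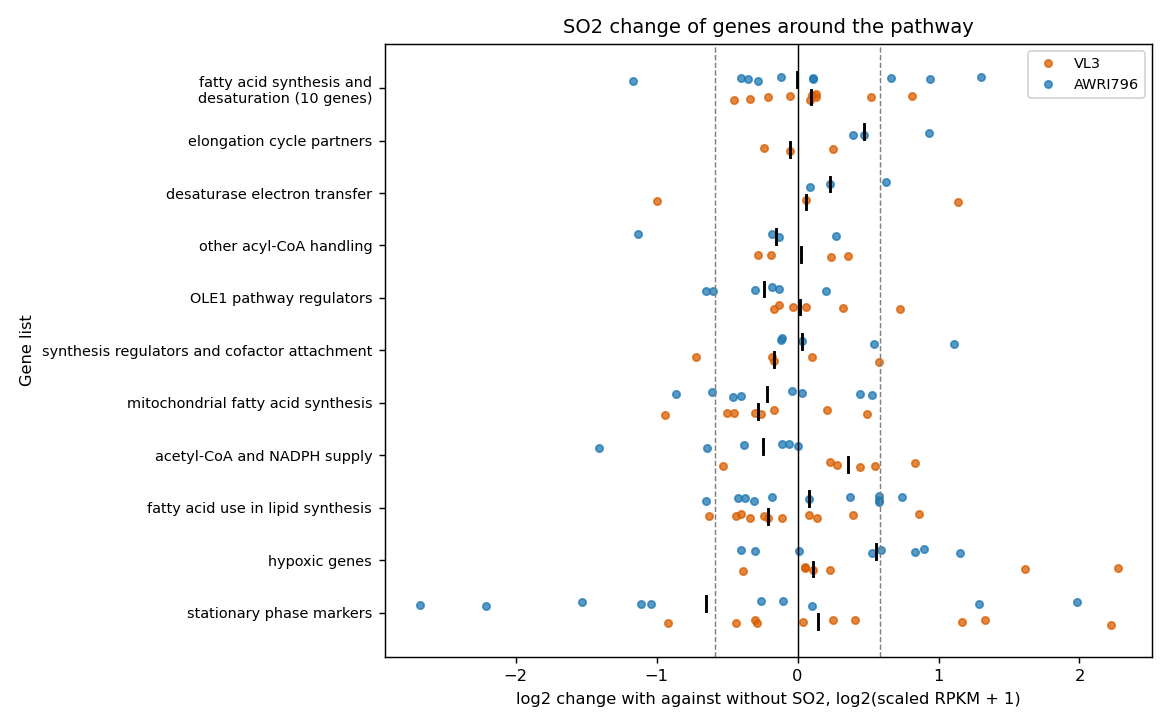
Log2 change with against without SO2 for each measured gene of the lists around the pathway, orange for VL3 and blue for AWRI796; black bars are list medians and dashed lines mark 1.5-fold. Elongation cycle partners lie to the right in AWRI796 (median 0.47) and around 0 in VL3 (median -0.05), and stationary phase markers to the left in AWRI796 (median -0.65).

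Likeness to OLE1 and FAS1 was measured as the root mean square difference of log2 levels, each gene centred on its own mean over the 6 libraries, among 5009 genes. Nearest to OLE1 were YJL132W (0.08), PIB2 (0.11), VVS1 (0.11), PXA2 (0.12) and SSA3 (0.12), beside a median over all genes of 0.52. PXA2 encodes a subunit of the peroxisomal importer of long acyl-CoA; it went from 65.3 to 24.6 in AWRI796 and from 64.7 to 47.5 in VL3. SSA3, a heat shock protein, is also among the stationary phase markers. The nearest of the 10 to OLE1 was FAA4 at 0.33, and ELO2 was the farthest at 0.8. Nearest to FAS1 were ROM2, NAM7, MBP1, YSC83 (each 0.1) and GEA2 (0.11), beside a median of 0.37. Of the 10, ACC1 and MGA2 were nearest to FAS1 at 0.18, and FAS2, its partner subunit, was the farthest at 0.6.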

How the data were processed

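The authors deposited 1 table of RPKM, 1 column per library, per the file headers. Per the labels' protocols, total RNA was depleted of ribosomal RNA and libraries were made with the SOLiD 4 whole transcriptome kit. The aligner, counting tool, build and gene models: not given in the sources used here; start and end equalled R64 for 5853 of 5861 genes found in both. Dropped were 8 rows sharing a name, and 2 genes were recovered from a line that holds several. Depth is unknown: at the best step, 27.4% to 30.2% of low values came within 0.1 of whole reads, and chance gives 20%, so reads were not recovered. RPKM summed to between 778099 and 1070965.

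RPKM were divided by median-of-ratios factors from 4993 genes; changes are on log2(value + 1), which understates changes of low genes. Genes with a mean RPKM of at least 5 were kept (5335). Within a strain there is no test. limma 3.58.1 (R 4.3.3, lmFit, eBayes with trend, two-sided, Benjamini-Hochberg over all genes) was fitted to VL3 and AWRI796 with strain and SO2 as terms (1 residual degree of freedom, 6.44 pooled), and to the 4 cultures with SO2 for R008 against the rest (2 residual, 8.54 pooled). Nothing says that strains are replicates, so p-values rest on the spread between them. Coding identity came from BLAST+ 2.17.0. Named were all 10 genes in every library, members of the other lists past 1.5-fold or fixed by name, and the 5 nearest patterns; not every such gene is printed. The genes, lists, motifs and tests were chosen with earlier results of these data known. Other scalings, pseudocounts, filters and model terms were tried; counts of library order and of opposite signs under other scalings, and the marker sum without HSP12 and HSP26, were added after seeing the data.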

Additional observations from a re-analysis of the deposited data

Results flagged for a closer look

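The 5 results below were flagged because the single VL3 and AWRI796 library pairs moved in opposite directions with SO2. Opposite directions were seen for 46.0% of 5092 genes, so 5 of 10 lies near the share of all genes. None of the 5 differences was tested. Given as the log2 change in AWRI796 minus that in VL3, the difference was -0.8 for ACC1, -0.5 for FAS2, 0.71 for ELO1, 1.64 for ELO3 and -1.17 for FAA1. For ELO1 the VL3 change was -0.05, and without the scaling factors it was 0.12, so its opposite direction depends on the scaling. For the other 4 genes both signs were the same with the scaling factors, without them and with quantile normalization, but the FAS2 difference was -0.74 without them and -1.01 with quantile normalization, past 1.5-fold in both.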

How the results depend on the processing

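Without the scaling factors the median of all genes shifted to 0.15 in VL3, -0.07 in AWRI796 and -0.23 for their difference. In VL3, 930 genes were then at least 1.5-fold higher and 290 lower (76.2% of those past the threshold higher), against 553 and 508 (52.1%); for the difference, 724 and 1526 (32.2%) against 1060 and 1000 (51.5%). For the 10 genes, the VL3 median became 0.27 with 2 genes higher (ACC1 at 0.69 joined FAA1), the AWRI796 against VL3 median 0.04, the R008 median -0.06 and the median difference of changes -0.24. With quantile normalization 1 gene was lower in VL3 (OLE1 at -0.81) and 2 were lower in AWRI796 (FAS2 at -0.82 joined OLE1). In AWRI796 2 were then higher, as ELO1 at 0.52 fell below the threshold. The medians were -0.26 in AWRI796 and -0.23 for the difference. The cause was not tested. Leaving out each enological library in turn gave an R008 median between 0.09 and 0.35, the latter without VL3. Pseudocounts of 0.1 and 5, no filter and a minimum mean of 20 changed no call and no median of the 10 by over 0.1.

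With no replicate block, that is without strain in the model, the median SO2 change over both strains was 0.12 as with it, and 0 of the 10 were called, as under every setting of the 3 limma fits. Over all genes, the AWRI796 against VL3 fit called 17, but 10 with quantile normalization and 0 with no filter; the R008 fit called 9, but 26 with no filter, 6 with quantile normalization and 16 without VL3. Missing replicates and unknown depth limit every value.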
